A study of Mus musculus with 3 samples.

Results

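The troponin complex is the calcium switch of striated muscle, and its 8 genes were followed in the hearts of mouse embryos that carried or lacked Lrrc10, a leucine-rich repeat gene of heart muscle cells. Troponin T ties the complex to tropomyosin on the thin filament, troponin I holds contraction off while calcium is low, and troponin C binds calcium and releases that hold. Each subunit has forms for cardiac, slow skeletal and fast skeletal muscle: Tnnt2, Tnnt1 and Tnnt3 for troponin T, Tnni3, Tnni1 and Tnni2 for troponin I, and Tnnc1 and Tnnc2 for troponin C. Cardiac and slow skeletal muscle share Tnnc1. The fetal heart is known for making slow skeletal troponin I, which the cardiac form replaces around birth.

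Every gene probe named after 1 of the 8 genes was taken, which gave 12 of the 41174 gene probes on the array. The family was chosen by the same log ratios that are described here, because Tnni2 had been among the strongest falling probes in an earlier analysis of these arrays. The ratios below are therefore a description of the 8 genes, and nothing is read from the limma calls and p-values printed for them.

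The 3 two-colour arrays each set an Lrrc10-/- pool in Cy5 (red) against an Lrrc10+/+ littermate pool in Cy3 (green), with 2 whole hearts of embryonic day 15.5 in every pool and a C57BL/6 background throughout. For the wild-type channel an entry on sacrifice at an adult age stands in the labels too, and the embryonic age that all other labels give was taken. Dye and genotype ran the same way on every array, so they cannot be told apart, and in RNA of whole hearts fewer cells of a type and less RNA per cell cannot be told apart either. Pools of 2 embryos average over animals, and nothing in the labels says how the litters were spread over the pools.

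The gene that was deleted went against its label. Lrrc10 had log2 ratios of Cy5 over Cy3 of 3.99, 4.78 and 4.45 on replicates 1, 2 and 3 (mean 4.41 ± 0.40, SD, n = 3, limma adjusted p of 0.000381), which is higher in the channel labelled Lrrc10-/-. What lies behind this Lrrc10 value, in the labels or in what the probe reads, was not tested. All directions are given for that channel as labelled, and they would turn if the labels were exchanged. The 16 cardiomyocyte genes looked up were above background in both channels on all arrays. Replicate 1 came from another scanner model and software version than replicates 2 and 3, and its ratios over all tested probes correlated with theirs at 0.510 and 0.219, against 0.223 between replicates 2 and 3. Gene spots at the scanner's limit in both channels numbered 90, 451 and 457 on the 3 arrays.

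Probe sequences are shown for the pairs of probes that lie over matching stretches of sister isoforms, and for Tnnt1, whose ratio differed most between arrays. Capitals mark bases that are identical in the best ungapped alignment of the 2 probes of a pair, and all sequences run 5′ to 3′ as deposited with the array. The 2 troponin T probes shared 29 of 44 aligned bases (65.9%), and the 2 troponin I probes shared 23 of 37 (62.2%).
Tnnt2 A_51_P338262: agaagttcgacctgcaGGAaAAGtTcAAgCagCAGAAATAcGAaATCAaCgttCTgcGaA
Tnnt3 A_51_P345699: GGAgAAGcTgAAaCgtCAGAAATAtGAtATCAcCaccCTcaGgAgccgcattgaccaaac
Tnni3 A_51_P386983: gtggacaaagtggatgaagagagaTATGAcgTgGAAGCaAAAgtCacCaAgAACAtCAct
Tnni1 A_51_P435704: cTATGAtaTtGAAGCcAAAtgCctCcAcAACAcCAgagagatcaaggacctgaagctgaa
Tnnt1 A_51_P362627: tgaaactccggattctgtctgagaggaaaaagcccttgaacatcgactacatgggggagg

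In the positions of the files (mm9) these probes lie at chr1:137747976-137748288, chr7:149698500-149700262, chr7:4472043-4472102, chr1:137704148-137705229 and chr7:4460086-4460145, in the order printed. Where the genomic interval is longer than the 60 bases of the probe, the probe spans a splice junction: this holds for the Tnnt2 probe (313 bases), the Tnnt3 probe (1763 bases) and the Tnni1 probe (1082 bases) shown above, for the other Tnnt3 and Tnni1 probes (226 and 876 bases) and for the Tnnc1 probe (417 bases). Those probes read spliced transcript. The probe of Tnni2 (chr7:149630241-149630300) and that of Tnnc2 (chr2:164602661-164602720) hold the letters AATAAA, the usual signal for adding the poly(A) tail, starting at base 52 and base 40 of the probe. Searched on the printed strand, 4.8% of all gene probes hold these letters. No probe of another troponin I gene matched the Tnni2 probe at more than 10 of 20 aligned bases.

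How much of each gene could be read differed by isoform. All 12 probes were well above background in both channels on all 3 arrays, so probes of all 8 genes, the fast skeletal forms included, gave signal in both labels. Of all gene spots, 63.9% to 93.2% were well above background, by array and channel. Whether the dim probes also read transcript of a sister form was not tested. The probes of the cardiac and slow forms were mostly too bright for the scanner. Of the 36 values (12 probes on 3 arrays), 11 were saturated in both channels and give no ratio, 4 were saturated in Cy5 alone, which understates Cy5, and 21 were readable. Readable on every array were 5 probes, of 4 genes: both Tnnt3 probes, Tnni2, Tnnc2 and the dimmer Tnnt2 probe. On replicate 1, 10 of the 12 probes were readable, so the cardiac forms are described mainly from that array. A brighter spot does not by itself mean a more abundant transcript, because probes differ in how well they bind.

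**Figure D1:**
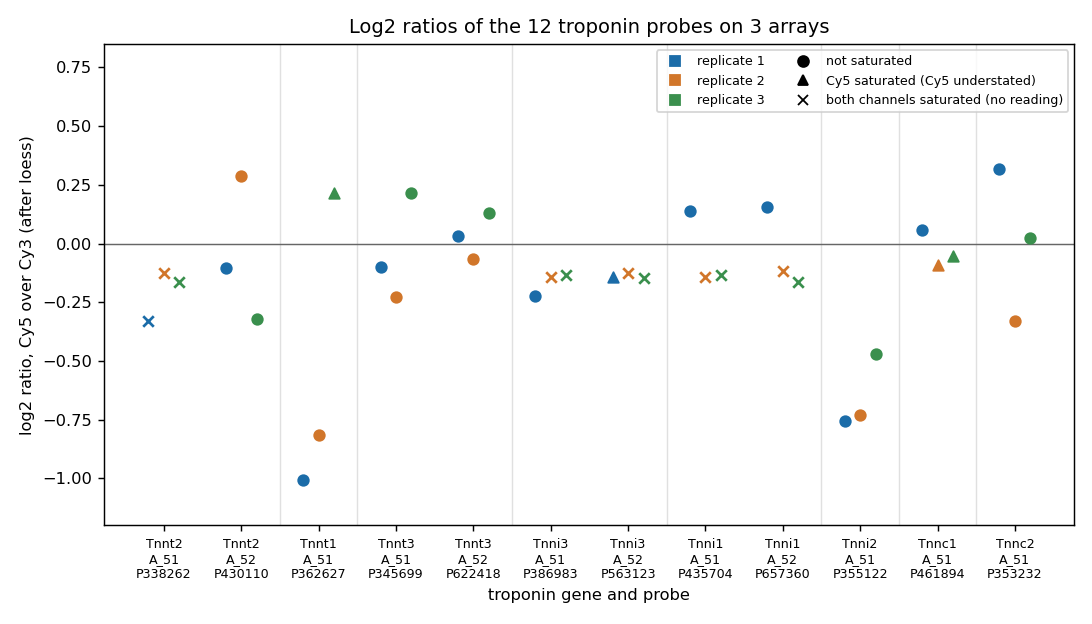
Log2 ratios of Cy5 (labelled Lrrc10-/-) over Cy3 (labelled wild type) for the 12 troponin probes, 1 mark for each array. Circles are readable spots, triangles have Cy5 at the scanner's limit, which understates Cy5, and crosses have both channels at the limit and carry no reading. Tnni2 lies below 0 on all 3 arrays, Tnnt1 on the 2 arrays where it could be read, and the circles of Tnnt3 and Tnnc2 lie on both sides of 0.

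Across the family, 0 of the 12 probes were called higher and 0 lower by limma (adjusted p under 0.05), where the shares of all 28315 tested probes were 1.40% called higher and 0.00353% called lower. Without adjustment, limma p-values under 0.05 came to 0 higher and 2 lower, where the shares of all tested probes were 9.06% and 4.27%. Nothing is read from these counts, since the same ratios chose the family. Of the 12 probes, 10 had a mean log2 ratio below 0, but 5 of the 12 were saturated in both channels on at least 2 arrays. Lower on all 3 arrays were 4 probes and higher on all 3 were 0, beside 17.5% and 19.1% of all tested probes. Of these 4, Tnni2 was the 1 that could be read on all arrays, and the other 3 (a Tnnt2 probe and both Tnni3 probes) include saturated spots.

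Among the troponin T genes, the fast form Tnnt3 lay on both sides of 0 and the slow form Tnnt1 was well below 0 on 2 of 3 arrays. Tnnt1 binds tropomyosin in slow skeletal fibres. Its processed signals in Cy5 were 31700, 29099 and 95445 on replicates 1, 2 and 3. In Cy3 they were 55682, 45372 and 88446. Cy5 was the dimmer channel on replicates 1 and 2, and on replicate 3 the order was the other way, with Cy5 at the scanner's limit. The log2 ratio was -1.01 on replicate 1 and -0.81 on replicate 2. On replicate 3 it was 0.21 after loess and 0.11 by the software's processed signals, with Cy5 understated in both. Replicate 3 thus stood apart from the others, and the mean of the 2 readable arrays was -0.91, against -0.54 ± 0.66 (SD, n = 3) with replicate 3 included. A fit without replicate 3 rests on 2 arrays and leaves out the array on which Tnnt1 went the other way. In that fit limma called 2 troponin probes lower, Tnnt1 and Tnni2, and 0 higher. Of all tested probes, 0.872% (247) were called lower and 5.47% (1548) higher there. With all 3 arrays the limma adjusted p was 0.373 for Tnnt1 and 0.0593 for Tnni2. Nothing is read from these calls, since the same ratios chose the family.

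Tnnt2 encodes cardiac troponin T, the form of the working heart. Its junction-spanning probe A_51_P338262, printed above, was saturated in both channels on all 3 arrays and gives no ratio. Its log2 values after loess averaged -0.21, as did those of the other list genes in that state: Mybpc3, Myh7, Myl2, Myl3 and Nppa had a probe at -0.21 too. Over the 55 tested probes saturated in both channels on all arrays, the mean log2 value ran only from -0.21 to -0.20. A mean of about -0.2 over the 3 arrays is therefore what the normalization returns at the scanner's limit, whatever the transcript. On the single arrays the values of this Tnnt2 probe at the limit were -0.33, -0.12 and -0.16.

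The dimmer Tnnt2 probe, A_52_P430110 (chr1:137735641-137735700), was designed on a cDNA clone and lies in 1 block of the genome, upstream of the junction-spanning probe. Its processed signals were 184, 352 and 801 in Cy5. In Cy3 they were 169, 242 and 1104. The channels changed order between arrays. The log2 ratio was -0.10, 0.29 and -0.32, averaging -0.046 ± 0.31 (SD, n = 3), so it did not differ from 0 beyond its spread. Whether this probe reads mature cardiac troponin T was not tested.

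Tnnt3, the fast skeletal troponin T, was read by 2 splice-spanning probes, and both could be read on every array. Probe A_52_P622418 (chr7:149698254-149698479) had processed signals of 290, 369 and 215 in Cy5 and of 349, 457 and 158 in Cy3. Its log2 ratio was 0.030, -0.065 and 0.13 (mean 0.032 ± 0.097, SD, n = 3). With the software's processed signals it was -0.27, -0.31 and 0.44. The probe printed above had 228, 266 and 194 in Cy5 and 243, 326 and 127 in Cy3. Its log2 ratio was -0.099, -0.23 and 0.22 (mean -0.037 ± 0.23, SD, n = 3). Both probes placed replicate 2 lowest and replicate 3 highest, and their ratios differed by no more than 0.16 on any array.

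Among the troponin I genes, the fast skeletal form was lower in the channel labelled Lrrc10-/- on every array. Tnni2 encodes the inhibitory subunit of fast skeletal fibres. Its processed signals were 4030, 5297 and 11384 in Cy5. In Cy3 they were 5873, 7979 and 16155. Cy5 was the dimmer channel on all 3 arrays, and neither channel was saturated. The log2 ratio was -0.76, -0.73 and -0.47, averaging -0.65 ± 0.16 (SD, n = 3), which is 1.57-fold higher in Cy3. With the scanner software's own processed signals in place of loess it was -0.54, -0.59 and -0.51 (mean -0.55 ± 0.043, SD, n = 3). These are the values that brought the family into view. In their light, 20 of the 15423 genes tested had a lower mean log2 ratio than Tnni2. At or below -0.47, the highest of the 3 Tnni2 ratios, lay 12 of all tested probes on all 3 arrays, while 504 lay at or above 0.47. Tnni2 is among the 12 by the choice of that limit, so its place is a description.

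**Figure D2:**
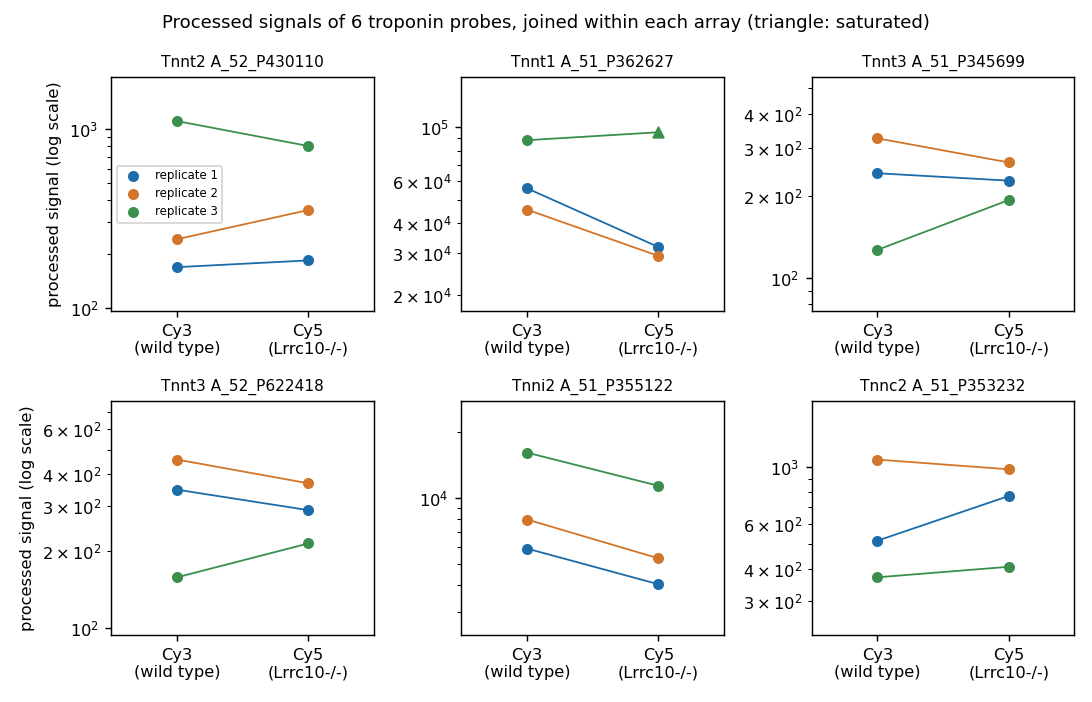
Processed signals (log axis) of 6 troponin probes in Cy3 (labelled wild type) and Cy5 (labelled Lrrc10-/-), with a line joining the channels of each array and a triangle where Cy5 was saturated. The 3 lines of Tnni2 run down from Cy3 to Cy5, those of Tnnt1 do so on replicates 1 and 2 only, and the lines of the remaining probes run both ways.

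The cardiac and slow troponin I probes could be read on replicate 1 alone. Tnni3 encodes cardiac troponin I, whose N-terminal extension is a target of protein kinase A. Probe A_51_P386983 had processed signals of 89436 in Cy5 and 91748 in Cy3 on replicate 1, and a log2 ratio of -0.22 there. On replicates 2 and 3 both channels were saturated. The other Tnni3 probe, A_52_P563123 (chr7:4471117-4471176), had Cy5 at the limit on replicate 1, where its ratio was -0.14 after loess and -0.23 by the software's signals with Cy5 understated, and both channels at the limit on the others.

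Tnni1, the slow form that the fetal heart also makes, gave the same reading from both of its splice-spanning probes. On replicate 1, A_51_P435704 had 45496 in Cy5 and 46869 in Cy3, and A_52_P657360 (chr1:137705328-137706203) had 85814 and 89095. The log2 ratios were 0.14 and 0.16. Both probes were saturated in both channels on replicates 2 and 3. On replicate 1, the log2 ratios after loess were 0.15 for the slow, -0.22 for the cardiac and -0.76 for the fast form of troponin I. With the software's processed signals they were -0.049, -0.037 and -0.54, so the fast form was lowest either way while the order of the slow and cardiac forms turned. With 1 readable array there is no replicate check of these distances.

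The troponin C genes showed no steady difference between the channels. Tnnc1 encodes the calcium sensor of cardiac and slow muscle (chr14:32023360-32023776), and its processed signals on replicate 1 were 48656 in Cy5 and 47876 in Cy3. The log2 ratio there was 0.060. On replicates 2 and 3 Cy5 was saturated, and the ratios, with Cy5 understated, were -0.092 and -0.055 after loess and -0.21 and -0.25 by the software's signals. Tnnc2, the calcium sensor of fast fibres, was readable throughout. Its signals were 773, 983 and 409 in Cy5. In Cy3 they were 517, 1072 and 372. The log2 ratio was 0.32, -0.33 and 0.024, averaging 0.0037 ± 0.32 (SD, n = 3), so the arrays disagreed on the direction.

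The fast skeletal genes did not lie together, and they can be set against each other on every array, since the probes of all 3 could be read. Tnni2 lay below Tnnt3 by 0.79, 0.66 and 0.60 log2 units on replicates 1, 2 and 3. The mean difference of Tnni2 minus Tnnt3 was -0.68 ± 0.095 (SD, n = 3), and with the other Tnnt3 probe it was -0.61 ± 0.10. Against Tnnc2 the difference was -0.66 ± 0.36, with all 3 arrays below 0. Tnnc2 minus Tnnt3, by contrast, was -0.028 ± 0.28, with 1 array above 0 and 2 below. With the software's processed signals Tnni2 minus Tnnt3 was -0.28, -0.28 and -0.95 (mean -0.50 ± 0.38, SD, n = 3). That Tnni2 lies lowest follows in part from how the family was chosen.

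**Figure D3:**
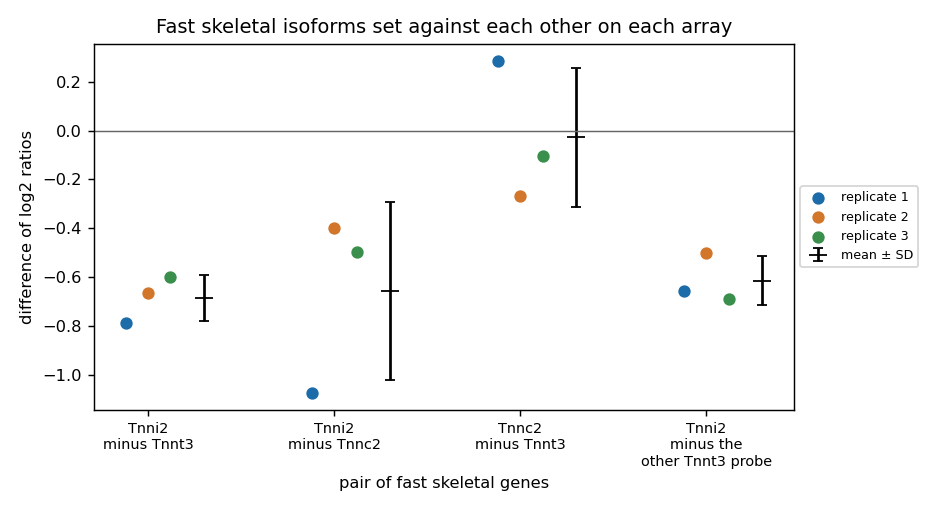
Differences of log2 ratios between pairs of fast skeletal troponin genes on each array, with mean ± SD over 3 arrays. All differences that involve Tnni2 lie below 0, from -1.07 to -0.40, while those of Tnnc2 and Tnnt3 lie on both sides.

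By isoform class, all genes could be read on replicate 1 alone. With saturated spots left out, the mean log2 ratio of the fast genes (Tnnt3, Tnni2, Tnnc2) was -0.16, -0.40 and -0.091 on replicates 1, 2 and 3. For the slow genes (Tnnt1, Tnni1) it was -0.43 on replicate 1, and for the cardiac genes (Tnnt2, Tnni3, Tnnc1) it was -0.089 there. Tnnt2 enters by its dimmer probe alone, for which the reading of mature cardiac troponin T was not tested. Fast minus cardiac was -0.069 and slow minus cardiac -0.34 on that array, against -0.084 and -0.47 with the software's processed signals, with no replicate check. The slow class was itself split there, since Tnnt1 lay 1.16 below Tnni1 on the log2 scale.

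Troponin I and troponin T genes lie near each other in the genome. Tnni1 with Tnnt2 and Tnni3 with Tnnt1 pair a slow with a cardiac form, while Tnni2 and Tnnt3 are both fast forms. In mm9 the nearest probes of Tnni1 and Tnnt2 are 30.3 kb apart on chromosome 1. Those of Tnni3 and Tnnt1 are 11.0 kb apart on chromosome 7, and those of Tnni2 and Tnnt3 are 68.0 kb apart on the same chromosome. The low ratio of Tnni2 was not shared by its partner Tnnt3, as shown above. In the gene order of the RefSeq table (GRCm38.p6), Lsp1, a leukocyte actin-binding protein, lies between them. Its log2 ratio was -0.12, 0.034 and 0.46 (mean 0.12 ± 0.30, SD, n = 3). Syt8, on the other side of Tnni2, was too dim to be tested, and Mrpl23, a mitochondrial ribosomal protein beyond Tnnt3, was at 0.34 ± 0.47.

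The low ratios of Tnnt1 were likewise not those of its neighbours. Ppp1r12c, a myosin phosphatase subunit gene, had probes at 0.40 ± 0.11 and 0.081 ± 0.13, and Tnni3, on the other side, was at -0.22 on replicate 1. Around Tnni1 and Tnnt2, Phlda3 was at 0.27 ± 0.28, Lad1 at -0.0097 ± 0.17 and Pkp1, a desmosome protein, at -0.12 ± 0.087. Beside Tnnc1, Sema3g was at 0.29 ± 0.17, and the 4 probes of Nisch ran from -0.67 to 0.14. The Nisch probe at -0.19 was saturated in both channels on 2 arrays. Beside Tnnc2, Ube2c, a ubiquitin-conjugating enzyme of mitosis, was at -0.34 ± 0.13, and the tested probes of Snx21 were at -0.23 and -0.11. None of these neighbours was called by limma (lowest adjusted p of 0.113, for a Nisch probe), and of their 15 tested probes 2 were higher and 2 lower at an unadjusted limma p under 0.05, beside 9.06% and 4.27% of all tested probes. Dnaaf3, next to Tnni3, had no probe matched by name.

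The genes whose 3 log2 ratios were nearest to those of Tnni2, among 15288 genes searched, were Pfkl, Gm8096, Fkbp10, Itm2c and Ddb1, at Euclidean distances of 0.072, 0.13, 0.24, 0.28 and 0.31 over 3 arrays. Pfkl, the liver type of phosphofructokinase in glycolysis, had -0.76, -0.80 and -0.47. Fkbp10, a prolyl isomerase of collagen folding, had -0.71, -0.57 and -0.64. Ddb1, an adaptor of a ubiquitin ligase, had -0.75, -0.48 and -0.27. With 3 arrays such likeness is a description. No thin filament gene was among the 5, but the 18 listed are so few among 15288 that this absence says nothing about them.

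Skeletal muscle transcripts were examined next, because the fast troponins are defining genes of that tissue. Of 24 skeletal muscle genes, 15 had a probe above background in both channels on all arrays. These were Atp2a1, Cacna1s, Casq1, Chrng, Mybpc2, Myh1, Myh2, Myh3, Myh4, Myh8, Myl1, Mylpf, Myog, Pax7 and Ryr1. Partly above background were Actn3, Cacng1, Chrna1, Chrnd, Mybpc1, Myf6 and Myod1. Pvalb, the parvalbumin of fast fibres, was above background on 2 arrays in Cy3 and on 0 in Cy5, and the myogenic factor Myf5 was above background on no array.

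The other skeletal muscle genes were spread around 0. Of the 19 tested, 1 was called higher and 0 lower by limma, with the same counts at an unadjusted p under 0.05. Over all 15423 genes tested, 1.53% were called higher and 0.00648% lower, and at an unadjusted p under 0.05 these shares were 10.1% and 4.93%. Their median log2 ratio was 0.035 beside 0.014 over all 15423 genes, and 42.1% lay below 0 against 47.0%. The gene called was Cacna1s, the pore subunit of the skeletal muscle calcium channel, at 1.28, 0.76 and 1.14 (mean 1.06 ± 0.27, SD, n = 3, limma adjusted p of 0.0212), though its other probe was too dim to be tested. It was not called without replicate 1 or without replicate 2 (limma adjusted p of 0.190 and 0.150), or with the software's processed signals (0.434). Myh1 and Myh4, fast myosin heavy chains, had the next largest values among genes with 1 direction on all arrays, at -0.26 ± 0.11 and 0.31 ± 0.23. Another tested probe of Myh1 was at 0.29.

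The summed processed signal of the 19 skeletal genes ran from 104105 to 178014 in Cy5 and from 104684 to 197946 in Cy3, with log2 ratios of -0.17, -0.0080 and -0.15 on replicates 1, 2 and 3. Most of that sum came from Myh8, saturated in both channels on all arrays, and Myh4. The other probe of each of these genes was too dim to be tested, and whether the bright probes also read cardiac myosins was not tested. Without Myh8 and Myh4 (chosen after their values were seen) the log2 ratios of the sum were 0.11, -0.27 and 0.052. By the same processed signals the Tnni2 log2 ratios were -0.54, -0.59 and -0.51, below all of these. Tnni2 was chosen for low ratios, so nothing is read from this order.

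Partners of troponin on the thin filament had mean log2 ratios from -0.27 to 0.70. Of 18 genes tested (actins, tropomyosins, tropomodulins, leiomodins, nebulins and Xin proteins), 0 were called in either direction by limma, with 1 higher and 0 lower at an unadjusted p under 0.05 (10.1% and 4.93% of all genes), and their median log2 ratio was -0.039. The highest, Xirp2 (a Xin protein, named after its values were seen), had 1.45, 0.70 and -0.052 on the 3 arrays, with a spread of 0.75 (SD, n = 3) around its mean. The other Xirp2 probe tested was at 0.021 ± 0.27. Among genes with 1 direction on all arrays, the largest values were those of Tmod4, a cap of the thin filament's pointed end in skeletal muscle, at 0.29 ± 0.23, Nebl, the cardiac nebulin relative, at -0.27 ± 0.29, and Xirp1 at -0.26 ± 0.19. Tropomyosin Tpm1 and cardiac actin Actc1, which troponin works on, were saturated in both channels on 2 of 3 arrays and give no ratio there.

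The 16 cardiomyocyte genes had 0 calls in either direction by limma, 1 higher and 1 lower at an unadjusted p under 0.05 (10.1% and 4.93% of all genes), and a median of -0.11. Of these, 3 were saturated in both channels on all arrays. In the 11 never saturated in both channels the median was -0.022. The largest values in 1 direction on all arrays were 0.62 ± 0.47 for the transcription factor Gata4, whose other probe was at -0.17, 0.28 ± 0.16 for phospholamban (Pln), the brake of the calcium pump, and -0.13 ± 0.14 for Nkx2-5.

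Genes that act on troponin were also followed. Kinases and phosphatases of troponin I (18 tested) had a median of 0.023, with 0 called in either direction by limma and 1 in each direction at an unadjusted p under 0.05, beside 10.1% and 4.93% of all genes. Prkaca, the catalytic subunit of protein kinase A, was at 0.54 ± 0.54, with 1.15 on replicate 3. Stk4, a Hippo pathway kinase, was at -0.46 ± 0.23, while 3 further probes of it ran from -0.097 to 0.090. Prkce, a protein kinase C, was at 0.16 ± 0.042.

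Splicing factors of troponin T (14 tested) had a median of 0.036, with 0 called by limma and 1 higher and 0 lower at an unadjusted p under 0.05, where 10.1% and 4.93% of all genes were. That gene was Hnrnph1, at 0.33, 0.77 and 0.81 (mean 0.64 ± 0.27, SD, n = 3, limma adjusted p of 0.0988). These counts take 1 probe for each gene, and Mbnl1 (named after its values were seen) entered at -0.12 ± 0.32. Another tested probe of Mbnl1 was at 1.03, 1.04 and 1.42 (mean 1.16 ± 0.22, SD, n = 3). Limma called that probe higher (adjusted p of 0.0172), as it did 1.40% of all tested probes. Ptbp1 and Ptbp2, repressors of muscle exons, were at -0.19 ± 0.14 and -0.24 ± 0.19. The transcription factors of muscle promoters (20 tested, 3 of them also cardiomyocyte genes above) had a median of -0.028, with 0 called by limma and 1 higher and 2 lower at an unadjusted p under 0.05, against the same 10.1% and 4.93%. Beside Gata4, the largest values of this kind were those of Myocd, at 0.36 ± 0.36 with another probe at -0.33, and Mef2a, at -0.31 ± 0.16 with another probe at 0.20.

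**Figure D4:**
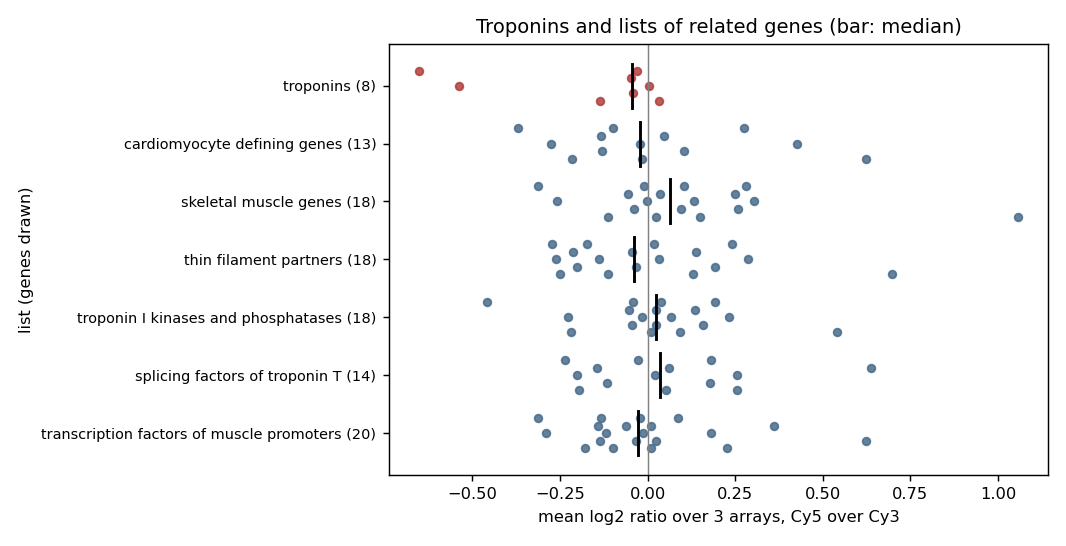
Mean log2 ratios over 3 arrays, 1 point for each gene, for the 8 troponins and 6 lists of related genes, with bars at the medians and genes saturated in both channels on all arrays left out. Tnni2 and Tnnt1 are the 2 troponin points farthest below 0, and the medians of the 7 groups lie between -0.043 and 0.065. The points of Tnni1, Tnnc1 and Tnnt1 rest in part on saturated spots, and that of Tnni3 rests on saturated spots alone.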

How the data were processed

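The deposited scanner files hold spot intensities of 3 two-colour Agilent arrays with 60-base probes. Per the file headers, the authors extracted them with Agilent Feature Extraction 9.1.3.1 (scanner G2505B) for replicate 1 and 10.7.3.1 (G2505C) for replicates 2 and 3, while the submitters' processing notes name version 9.5. Processed signals had been background-subtracted and dye-normalized by that software. The deposited log10 ratio is Cy5 over Cy3, and the series table equalled it at every spot (largest difference 0). The software's p-values per spot were not used.

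Mean signals were corrected with limma 3.58.1 in R 4.3.3 (normexp on the median local background, offset 50), and each array was normalized by loess (control spots weighted 0). Spots marked non-uniform were left out and spots of 1 probe averaged. Probes well above background in 1 channel on all 3 arrays were tested (28315), with the log2 ratios fitted against 0 by limma and adjusted by Benjamini-Hochberg at 0.05. No source says whether pools came from separate litters, so p-values measure the spread between these arrays. A channel was called saturated by the software's flag or within 1% of the scanner's limit. Signals are given as processed signals, and ratios after loess.

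Positions of probes were copied from the files (mm9), and for that build no exon annotation was used. Symbols and gene order come from RefSeq (GRCm38.p6), through which the accessions of 26888 probes matched. Lists use 1 probe for each gene, the brightest tested one not saturated in both channels on every array. Named genes are the 8 members, Lrrc10, genes next to a member, the 5 genes nearest Tnni2, the detection of each skeletal gene, and the 3 tested genes of each list with the largest mean ratio in 1 direction on all arrays. The members and the lists were chosen with earlier results of these data known. The test was tested on simulated data with changes larger than any troponin ratio here, so that run does not speak to changes of their size. The number of arrays limits the precision.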

Additional observations from a re-analysis of the deposited data

How the results depend on the processing

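Leaving out saturated spots, and leaving Myh8 and Myh4 out of the skeletal sum, were chosen after seeing the data. Over 14 alternatives for each gene, Tnni2 stayed between -0.74 and -0.55 and Tnnt1 between -0.91 and -0.30. Not all of these are separate checks. The other filters on probes leave a gene's value as it is, and the series table repeats the processed signals. Averaging over probes and leaving out saturated spots cannot move Tnni2, whose only probe was never saturated. Tnnt3 ran from -0.045 to 0.083, Tnnc2 from -0.15 to 0.20 and Tnnt2 from -0.21 to 0.091, so none of these 3 has a settled direction. Tnni1 ran from -0.25 with the software's processed signals to 0.15 without saturated spots, Tnnc1 from -0.15 to 0.060 and Tnni3 from -0.24 to -0.13, all values that include saturated spots in most settings. The class differences could be read on replicate 1 alone.

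No troponin probe was called higher under any alternative run. The count called lower (0) came to 1 with arrayWeights (Tnni2), to 3 with the methods' t-test at its unadjusted threshold (Tnni2 and both Tnni3 probes, which include saturated spots), and to between 0 and 2 without 1 replicate, the 2 being Tnni2 and Tnnt1 without replicate 3. Nothing is read from these counts of troponin probes, since the same ratios chose the family. Counts over all 28315 tested probes in these settings are given next. The count over all probes called higher (395) came to 0 after scaling, with the series table or processed signals, and with the t-test after Benjamini-Hochberg, to 1 with no background correction or the software version as a block, to 145 with no filter on dim probes, to 1529 with the unadjusted t-test, and to between 1 and 1548 without 1 replicate. The count called lower (1) came to 0 in the same settings and with no filter, to 2 with median centring, 3 with an intensity trend, 11 with arrayWeights, 1103 with the unadjusted t-test, and to between 0 and 247 without 1 replicate. The cause was not tested. Saturation of the cardiac and slow probes, rather than dim signal, limits what can be said of them. The pairing of the pools is already part of the fit, because each array is a ratio of 2 pools, and there is 1 group.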
